A study of Passer montanus with 72 samples.

Results

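FIGN, WFS1, MCTP2, SRL, CAMK1G, PLCXD3, ARNT2 and ATP6V1H are 8 genes whose transcript levels differ between the caudal and the rostral hippocampus of Eurasian tree sparrows (Passer montanus). They were named by symbol, 8 of the 21957 genes in the deposited count table, because their counts differed between caudal and rostral hippocampus in these same libraries. Their caudal to rostral differences are therefore given as a description without a test, and the tests concern what that choice did not use: the striatum, the sexes, differences among birds and covariation among birds. RNA was sequenced from 24 wild-caught birds kept in captivity, 13 labelled male and 11 labelled female, with 1 library each from striatum, caudal hippocampus and rostral hippocampus of every bird, 72 libraries in all. The labels name no age and no treatment. The series' design text calls the caudal part dorsal, and the sample labels' word caudal is used here.

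The hippocampus of birds lies along the dorsomedial wall of the pallium and, as in mammals, serves spatial memory. Its rostral and caudal ends are often set against the dorsal and ventral ends of the rodent hippocampus, which differ in gene expression, connections and behavioural role. The striatum lies below the pallium and consists largely of GABAergic medium spiny neurons, whereas hippocampal projection neurons are mainly glutamatergic. The 8 genes have varied roles in the cell. WFS1 (wolframin) is a membrane protein of the endoplasmic reticulum involved in its calcium balance, and in mice it is a marker of hippocampal CA1 pyramidal neurons. SRL (sarcalumenin) is a calcium-binding glycoprotein of the sarcoplasmic reticulum of muscle. MCTP2 carries calcium-binding C2 domains and membrane-spanning segments. CAMK1G is a calcium/calmodulin-dependent protein kinase. PLCXD3 carries the X domain of phosphoinositide-specific phospholipase C. FIGN (fidgetin) is an AAA ATPase that severs microtubules. ARNT2 is a transcription factor of the bHLH-PAS family that acts as a dimer partner, for example of SIM1 and NPAS4. ATP6V1H is the H subunit of the vacuolar proton pump, the V-ATPase, which acidifies organelles and synaptic vesicles.

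Total counts ranged from 2629433 to 5323201 per library. The striatum library of bird 11, a male, had a count in 7718 genes, against 10087 to 11547 in the other libraries. Bird 260, labelled female, had no count of the W-linked gene CHD1W in its 3 libraries, against 0 to 3 counts in birds labelled male and 101 to 216 in the other birds labelled female, so the male to female differences that the text turns on are also given without it. The tissue labels were checked with marker genes. The summed level of 12 medium spiny neuron markers ranged from 4579 to 7123 CPM (counts scaled by library size) in striatum, from 581 to 1023 in caudal and from 465 to 1006 in rostral hippocampus. The 11 pallial glutamatergic markers in the table summed to 133 to 684 CPM in striatum, 1303 to 2132 in caudal and 1787 to 2302 in rostral hippocampus, with SLC17A7 at or near 0 throughout. In such bulk tissue, fewer cells of a type and less RNA per cell cannot be told apart.

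FIGN was the gene with the higher caudal level, and the other 7 had the higher rostral level. With bird as a block, the fitted caudal minus rostral log2 fold was 2.21 ± 0.13 (SE, n = 24 birds) for FIGN and lay between -2.47 for SRL and -0.73 for ATP6V1H for the others. Over all 9359 genes tested, 49.8% passed an adjusted p of 0.05 in this contrast, 24.6% with the higher caudal and 25.2% with the higher rostral level; since the 8 genes were chosen on it, nothing is read from their count. The plot of levels by region gives every library.

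**Figure D1:**
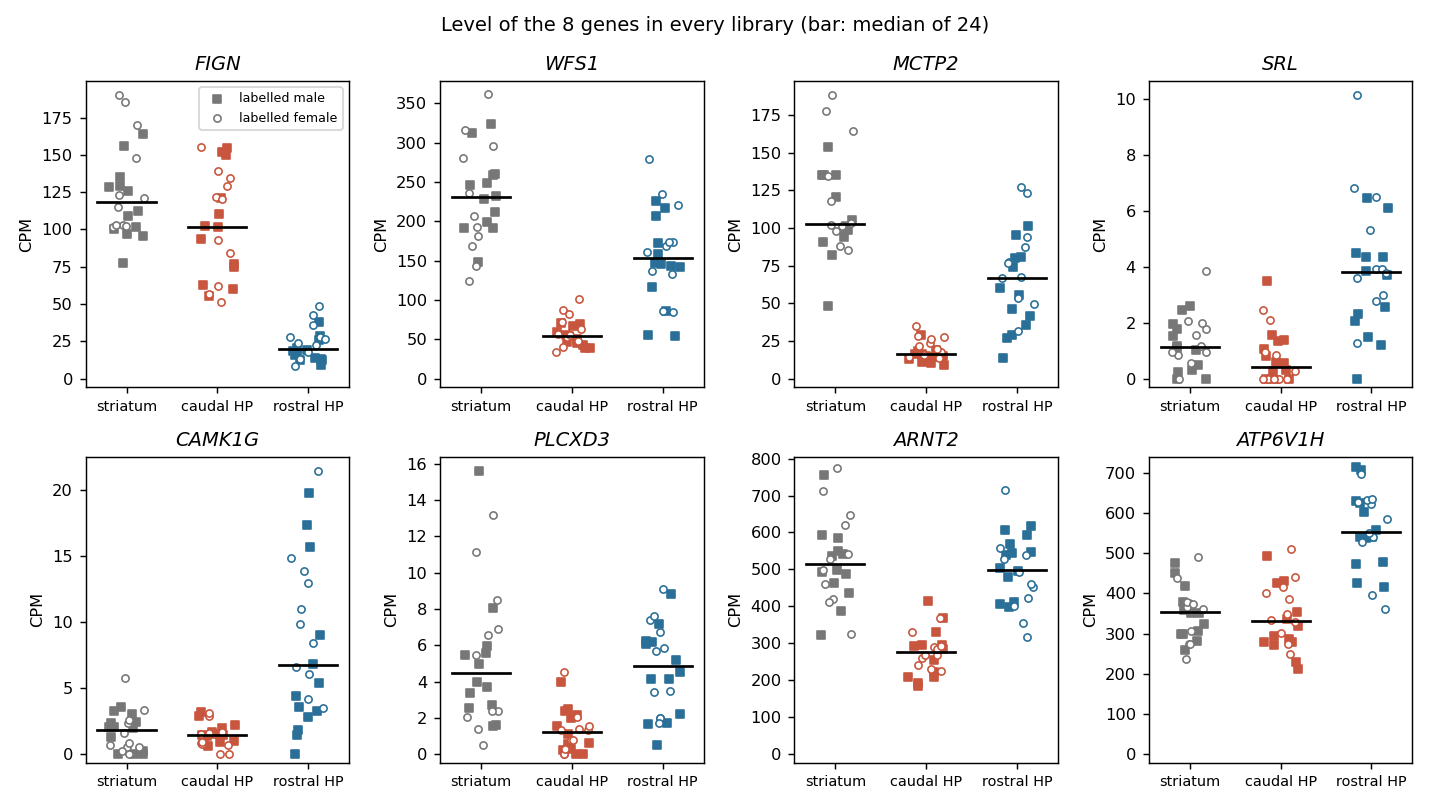
Level of each of the 8 genes in CPM (vertical axes, linear, a scale per gene) in striatum, caudal hippocampus and rostral hippocampus (HP), with 1 point per library, filled squares for birds labelled male, open circles for birds labelled female, and a bar at the median of 24. FIGN is the gene whose caudal points (51.6 to 155 CPM) all lie above its rostral points (8.38 to 48.7 CPM), and its striatal points (77.4 to 190 CPM) lie beside the caudal ones.

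WFS1 (gene identifier 100231376 in the deposited table) ranged from 124 to 362 CPM in striatum (median 230). It ranged from 33.4 to 101 CPM in caudal hippocampus (median 54.5) and from 53.7 to 279 CPM in rostral hippocampus (median 153). The caudal and rostral ranges overlapped, but 23 of 24 birds had the lower level in the caudal part. Bird 4 was the exception. The fitted caudal minus rostral log2 fold was -1.41 ± 0.11. MCTP2 (100217709) had the same order of regions. Its level was 48.2 to 189 CPM in striatum (median 103), 9.14 to 35.0 CPM in caudal hippocampus (median 16.3) and 13.4 to 127 CPM in rostral hippocampus (median 67.0). All 24 birds had less MCTP2 in the caudal part, although 4 rostral libraries, those of birds 2, 12, 15 and 22, lay below the highest caudal one, that of bird 4. The fitted log2 fold was -1.81 ± 0.15.

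FIGN (100229328) was the reverse of these genes along the hippocampus. It had 77.4 to 190 CPM in striatum (median 118), 51.6 to 155 CPM in caudal hippocampus (median 102) and 8.38 to 48.7 CPM in rostral hippocampus (median 19.8). The caudal and rostral ranges did not overlap, and within birds the caudal minus rostral difference in log2 CPM ran from 0.54 in bird 8 to 4.03 in bird 16. These genes were chosen on the caudal to rostral difference, so their ratios are given as a description. The log2 ratio of FIGN to WFS1 was -0.97 to 2.21 in caudal and -4.09 to -0.90 in rostral hippocampus. For FIGN to ATP6V1H it was -3.31 to -0.49 in caudal and -6.12 to -3.21 in rostral hippocampus. Both ratios overlapped between the parts, while the ratio of FIGN to MCTP2 within a library did not. The log2 ratio of FIGN to MCTP2 was 0.91 to 4.04 in caudal and -3.06 to 0.29 in rostral hippocampus. In striatum, where both genes are high, that ratio was -0.89 to 1.38 and overlapped the ratios of both hippocampal parts.

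ARNT2 (100218753) and ATP6V1H (100220186) are abundant transcripts with smaller regional differences. ARNT2 had 324 to 775 CPM in striatum (median 513), 185 to 415 CPM in caudal hippocampus (median 277) and 317 to 715 CPM in rostral hippocampus (median 500). ATP6V1H had 237 to 491 CPM in striatum (median 355), 213 to 511 CPM in caudal hippocampus (median 332) and 362 to 715 CPM in rostral hippocampus (median 554). For both genes the caudal and rostral ranges overlapped and all 24 birds were lower in the caudal part. The fitted caudal minus rostral log2 fold was -0.86 ± 0.08 for ARNT2 and -0.73 ± 0.06 for ATP6V1H. Per kilobase of the table's gene models, ATP6V1H had the highest mean level of the 8 genes in all regions, 136 ± 26.5 RPKM in striatum, 132 ± 31.2 RPKM in caudal and 216 ± 37.5 RPKM in rostral hippocampus (SD, n = 24 each).

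SRL, CAMK1G and PLCXD3 were the rare transcripts of the set, with medians of 1.5, 5 and 4.5 counts in the caudal libraries. SRL (100225672) had 0 to 3.84 CPM in striatum (median 1.13), 0 to 3.49 CPM in caudal hippocampus (median 0.429) and 0 to 10.2 CPM in rostral hippocampus (median 3.83). It had no count in 3 striatal, 9 caudal and 1 rostral libraries. A count of 0 allows a level of up to 0.564 to 1.14 CPM, the worth of 3 counts in the deepest and the shallowest library, by counting error alone. CAMK1G (105758886) had 0 to 5.79 CPM in striatum (median 1.82), 0 to 3.22 CPM in caudal hippocampus (median 1.45) and 0 to 21.5 CPM in rostral hippocampus (median 6.72). PLCXD3 (100231900) had 0.539 to 15.6 CPM in striatum (median 4.50), 0 to 4.55 CPM in caudal hippocampus (median 1.21) and 0.514 to 9.11 CPM in rostral hippocampus (median 4.84). The ranges of all 3 genes overlapped between the hippocampal parts. The caudal level was the lower one in 23 birds for SRL, with bird 7 at 0 in both parts, in 23 for CAMK1G and in 22 for PLCXD3. The fitted caudal minus rostral log2 folds were -2.47 ± 0.35 for SRL, -2.23 ± 0.34 for CAMK1G and -1.84 ± 0.33 for PLCXD3. Per kilobase, SRL was the scarcest of the 8, at a mean of 0.237 ± 0.176 RPKM in striatum, 0.140 ± 0.172 RPKM in caudal and 0.732 ± 0.415 RPKM in rostral hippocampus (SD, n = 24 each).

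**Figure D2:**
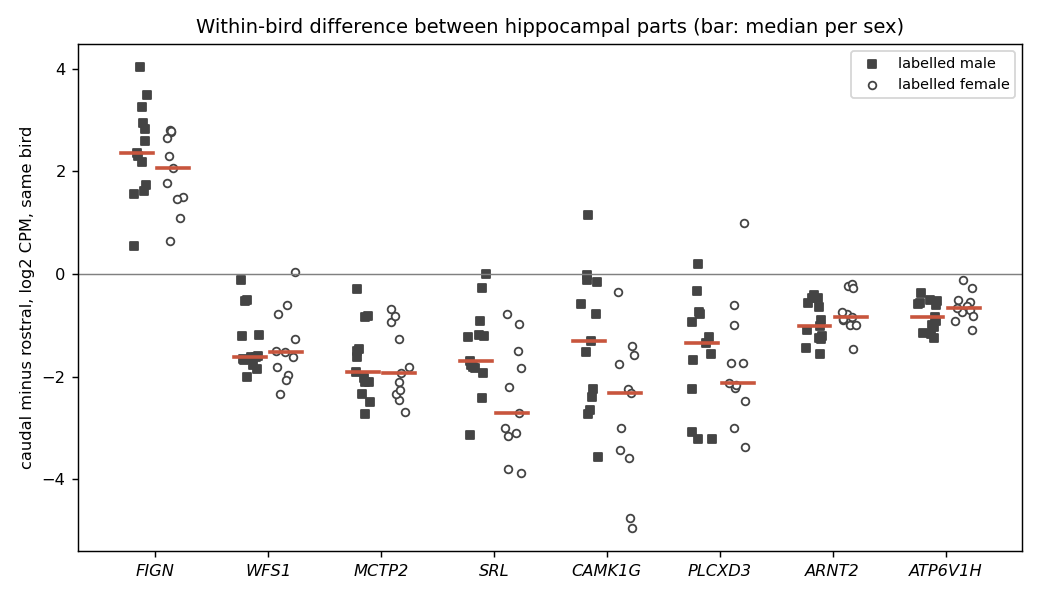
Caudal minus rostral difference of log2 CPM within each bird (vertical axis) for the 8 genes, with filled squares for 13 birds labelled male, open circles for 11 birds labelled female and red bars at the median of each sex. FIGN lies above 0 in all 24 birds, MCTP2, ARNT2 and ATP6V1H lie below 0 in all 24, WFS1 and CAMK1G cross 0 in 1 bird each and PLCXD3 in 2, and SRL is at 0 in 1 bird.

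Markers of other cells also differed between the hippocampal parts. The 9 choroid plexus and ependyma markers found in the table summed to 24.3 to 2858 CPM in caudal and 11.6 to 52.2 CPM in rostral hippocampus, with TTR from 1.20 to 2743 CPM in caudal libraries and CLIC6 at 0 in both parts. With the level of that list as a covariate, the caudal minus rostral log2 fold was 1.88 for FIGN, -1.17 for WFS1, -1.40 for MCTP2, -0.89 for ARNT2 and -0.63 for ATP6V1H. For the rare genes it was -2.52 for SRL, -3.04 for CAMK1G and -2.96 for PLCXD3, the last more than 1.5 times its size without the covariate. Medium spiny neuron markers were low in both parts, with a median sum of 837 CPM in caudal and 737 CPM in rostral libraries, and DRD2 reached at most 3.29 CPM in caudal and 3.97 CPM in rostral libraries. Against the direction of the sum, ADORA2A, an adenosine receptor of that list, had a median of 0.329 CPM in caudal and 4.54 CPM in rostral libraries. With the medium spiny neuron list as a covariate over the hippocampal libraries alone, chosen after seeing the data, the log2 fold was 2.47 for FIGN, -1.27 for WFS1, -1.58 for MCTP2, -1.59 for CAMK1G, -0.93 for ARNT2 and -0.82 for ATP6V1H, while SRL and PLCXD3 did not pass the filter on low counts in that fit. The 6 astrocyte markers found summed to 2686 to 4272 CPM in caudal and 3418 to 6099 CPM in rostral hippocampus, and their part in the differences was not tested.

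Set against the striatum, the genes fell into groups that the caudal to rostral contrast does not show. Striatum was tested against the mean of both hippocampal parts with edgeR's quasi-likelihood test, bird as a block and Benjamini-Hochberg adjustment over 9359 genes. SRL and CAMK1G did not pass the filter on low counts in striatum alone and entered this fit through the rostral libraries, where their level is high. Nothing is read from the test of these genes. Of the other 6 genes, 5 were higher and 1 lower in striatum. Over all genes 65.5% passed, 30.1% higher and 35.4% lower, with a median log2 fold of -0.05. PLCXD3, among the 5, did not pass the filter in caudal hippocampus alone. It entered through the striatal and rostral libraries, where its level is higher, so nothing is read from its call.

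MCTP2 was higher in striatum by a log2 fold of 1.77 ± 0.12 (SE; adjusted p = 8.2e-20), with the striatum above the mean of the hippocampal parts in 24 of 24 birds. FIGN was higher by 1.40 ± 0.10 (adjusted p = 9.47e-18) and WFS1 by 1.31 ± 0.09 (adjusted p = 1.85e-19), each in 24 of 24 birds. FIGN and the pair WFS1 and MCTP2, opposed along the hippocampus, were thus all higher in striatum. For PLCXD3 the fitted log2 fold was 1.00 ± 0.26 (adjusted p = 0.000852), with the striatum higher in 19 of 24 birds. This rests on its low caudal level. Within birds striatum minus caudal averaged 1.67 ± 1.45 (SD, n = 24) in log2 CPM, and striatum minus rostral 0.03 ± 1.2. ARNT2 was higher by 0.49 ± 0.07 (adjusted p = 2.43e-09) in 21 of 24 birds.

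ATP6V1H was lower in striatum by a log2 fold of -0.31 ± 0.05 (adjusted p = 2.59e-07), in 21 of 24 birds. For CAMK1G the fitted log2 fold was -1.14 ± 0.31 (adjusted p = 0.00122), from which nothing is read, since it entered through its high rostral level. Within birds striatum minus caudal averaged -0.06 ± 1.5 (SD) in log2 CPM for CAMK1G and striatum minus rostral -1.99 ± 1.36 (n = 24 birds). SRL did not pass the threshold, with a log2 fold of -0.39 ± 0.31 (adjusted p = 0.266) and a 95% interval from -0.997 to 0.214. SRL and CAMK1G had no count in the striatum library of bird 11.

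The mean of the hippocampal parts hides how near the striatum was to either of them. The striatal level of FIGN was above the caudal level in 18 of 24 birds and above the rostral level in 24 of 24. For ARNT2, striatum exceeded the rostral part in 15 of 24 birds and the caudal part in 24 of 24. ATP6V1H showed the opposite neighbourhood, since its striatal level exceeded the caudal one in 13 of 24 birds while the rostral level exceeded the striatal one in 23 of 24. WFS1 and MCTP2 were higher in striatum than in the rostral part in 20 and 21 of 24 birds. PLCXD3 in striatum exceeded the caudal part in 23 of 24 birds and the rostral part in 9 of 24, with a median striatum minus rostral difference of -0.18 in log2 CPM. CAMK1G in striatum exceeded the caudal part in 13 of 24 birds and the rostral part in 2, and SRL in 16 and 2. The order of medians was striatum, caudal, rostral for FIGN, striatum, rostral, caudal for WFS1, MCTP2 and ARNT2, and rostral, striatum, caudal for SRL, CAMK1G, PLCXD3 and ATP6V1H. Apart from caudal and rostral FIGN, all neighbours in these orders overlapped in range.

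**Figure D3:**
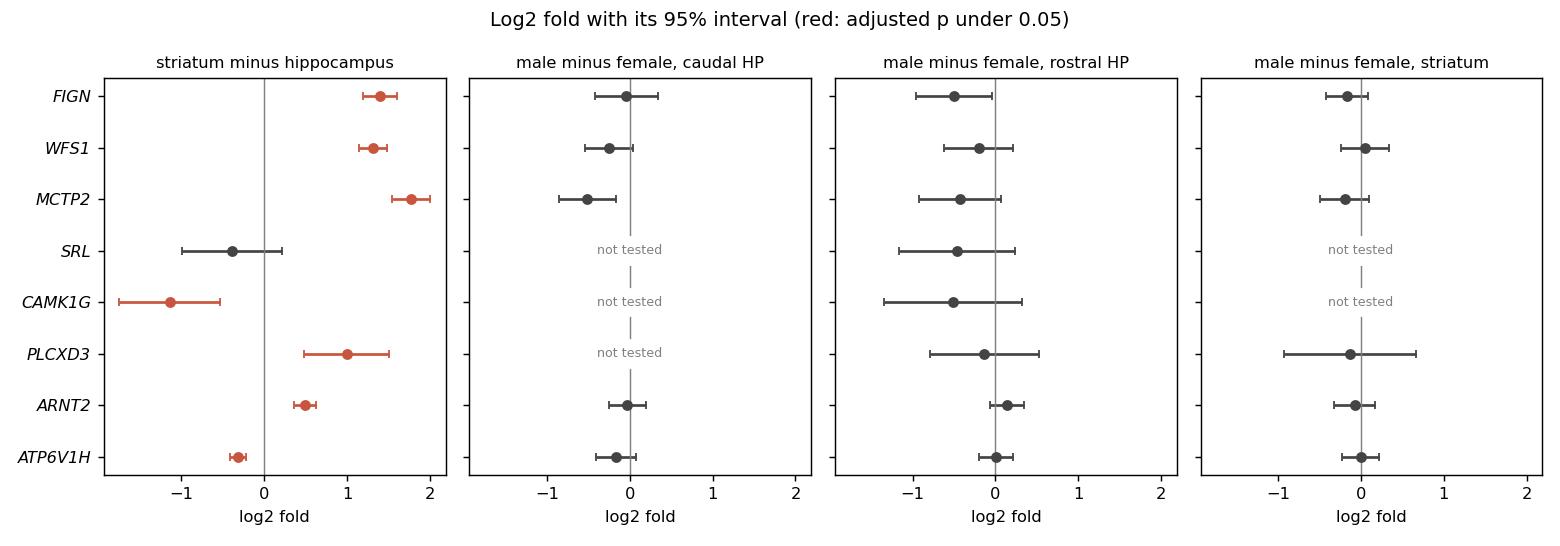
Log2 fold with its 95% interval (horizontal axes) for the 8 genes in striatum minus the mean of the hippocampal parts and in male minus female birds in each region (HP, hippocampus), red where the adjusted p was under 0.05 and "not tested" where a gene did not pass the filter on low counts. In the striatum comparison 7 genes are red, from -1.14 for CAMK1G, which entered that fit through its rostral counts, to 1.77 for MCTP2, and none is red between the sexes. PLCXD3, among the red, entered that fit through its striatal and rostral counts. Nothing is read from the calls of CAMK1G and PLCXD3.

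Between the sexes, none of the genes that could be tested passed the threshold in any region. In caudal hippocampus 5 of the 8 passed the filter on low counts and 0 were called, against 2.69% of all genes; in rostral hippocampus 0 of 8 were called, against 5.29%; and in striatum 0 of 6 were called, against 1.69%. limma voom and DESeq2 also called 0 in each region. At an unadjusted p under 0.05 edgeR had 1, 1 and 0 of these genes in caudal hippocampus, rostral hippocampus and striatum. Over all genes it had 1162 of 8846, 1797 of 9003 and 454 of 8750, so nothing is read from these counts.

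The gene past the unadjusted threshold in caudal hippocampus was MCTP2. It had 9.14 to 28.9 CPM in male (median 14.9) and 13.7 to 35.0 CPM in female caudal hippocampus (median 21.4), so the sexes overlapped. Its male minus female log2 fold was -0.51 ± 0.18 (edgeR adjusted p = 0.14; 95% interval -0.86 to -0.17). Without bird 8, a male, the adjusted p was 0.0252, and without bird 260 the log2 fold was -0.49 with an adjusted p of 0.197.

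FIGN was the gene past it in rostral hippocampus, with 8.81 to 37.9 CPM in males (median 16.4) and 8.38 to 48.7 CPM in females (median 26.9). The male range lay within the female range. The male minus female log2 fold of FIGN was -0.50 ± 0.24 (edgeR adjusted p = 0.226), and without bird 260 it was -0.55 (adjusted p = 0.185). The other tested values ran from -0.51 for CAMK1G in rostral hippocampus to 0.14 for ARNT2 there. For ARNT2 and ATP6V1H the 95% intervals in the 3 regions lay between -0.41 and 0.34, whereas for CAMK1G in rostral hippocampus the interval ran from -1.35 to 0.32.

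PLCXD3 lies on the sequence that carries all 17 genes of a list of avian Z-linked genes, with 1084 genes in the table. Female birds have a single Z chromosome and males have a pair, and most Z genes in these data were higher in males. The male minus female log2 fold of Z genes had a median of 0.66 in striatum, with 95.2% of 393 genes above 0, and of 0.67 in rostral hippocampus, with 93.6% of 406 genes above 0. For PLCXD3 it was -0.13 ± 0.40 in striatum (95% interval -0.93 to 0.66) and -0.13 ± 0.33 in rostral hippocampus (-0.79 to 0.52), where 14 of the 406 Z genes were at or below it. In striatum 4 of the 393 were at or below it. Without bird 260 the Z medians were 0.75 in striatum and 0.74 in rostral hippocampus, and PLCXD3 had -0.10 and -0.08, with 7 of 394 and 16 of 409 Z genes at or below it. The other 7 genes lie on other sequences, and ARNT2 and MCTP2 share one, 2720455 bases apart.

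Whether the regional differences depended on sex was tested by interaction terms. For the caudal minus rostral difference, edgeR called 0 of the 8 genes, against 2.76% of all genes. It gave an unadjusted p under 0.05 for 0 of the 8 and for 1650 of 9359 genes. limma voom and DESeq2 also called 0 of the 8. SRL, CAMK1G and PLCXD3 did not pass the filter on low counts in caudal hippocampus alone. They entered the interaction fits through the regions where their level is higher, so nothing is read from their part in these counts. The median caudal minus rostral log2 difference of FIGN within birds was 2.36 in males and 2.07 in females, and the fitted difference between the sexes was 0.46 ± 0.26 (adjusted p = 0.342; 95% interval -0.04 to 0.96). For SRL, with medians of -1.69 in males and -2.71 in females, the interaction was 1.13 ± 0.72 (adjusted p = 0.418; 95% interval -0.29 to 2.54), which covers a wide span. For ATP6V1H it was -0.16 ± 0.11 (adjusted p = 0.476; 95% interval -0.38 to 0.06). Without bird 260 the interactions were 0.53 for FIGN (adjusted p = 0.306), 1.01 for SRL (adjusted p = 0.547) and -0.21 for ATP6V1H (adjusted p = 0.382), and 0 of the 8 genes were called. For striatum minus hippocampus, 0 of the 8 genes and 0% of all genes were called, edgeR gave an unadjusted p under 0.05 for 0 of the 8 and for 349 of 9359 genes, and limma voom and DESeq2 called 0 genes.

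Birds of the same sex differed in the level of ATP6V1H and WFS1 shared by their 3 regions. An edgeR quasi-likelihood F test of bird within sex called 2 of the 8 genes, against 13.8% of all genes. ATP6V1H had F = 4.99 (adjusted p = 6.12e-05). Its lowest bird, bird 4, a female, had 237, 273 and 396 CPM in striatum, caudal and rostral hippocampus, and its highest, bird 11, a male, had 477, 492 and 706 CPM. In 16 of 24 birds the 3 regions lay on the same side of the means for their region and sex. WFS1 had F = 2.89 (adjusted p = 0.0126), with bird 3, a male, the lowest and bird 14, a female, the highest. For the other 6 genes the adjusted p lay between 0.118 for FIGN and 0.583 for PLCXD3. limma voom called FIGN, SRL and CAMK1G as well. SRL, CAMK1G and PLCXD3 entered these fits through the regions where their level is higher, so nothing is read from their values here.

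Within a region some pairs of the genes also covaried among birds. Pearson's r and Spearman's rho of log2 CPM were computed for the 28 gene pairs in each region over 24 birds, 84 relations in all, with two-sided permutation tests of 100000 resamples and Benjamini-Hochberg adjustment. By r 11 were called, 8 positive and 3 negative, and by rho 9. Pairs of other genes were not tested, so these counts are not read as particular to the 8 genes. Values of a pair come from the same libraries and share their scaling. In the hippocampal parts these are also the libraries on which the genes were chosen, and whether that choice bears on the pairs was not tested.

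WFS1 and MCTP2 were the closest pair, with r = 0.78 in rostral hippocampus (permutation p = 1e-05, the smallest that these permutations give; adjusted p = 0.00084; rho = 0.78). Without the 2 birds farthest from the median of WFS1, r was 0.70. In caudal hippocampus their r was 0.62 (adjusted permutation p = 0.0144; rho = 0.62), and 0.64 without 2 birds. In striatum, where both genes are at their highest, r was 0.15 (adjusted permutation p = 0.695). Whether the striatal relation differs from the hippocampal ones was not tested.

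In rostral hippocampus WFS1 also varied with CAMK1G (r = 0.70, rho = 0.69, adjusted permutation p = 0.0037 for r) and with PLCXD3 (r = 0.69, rho = 0.57, adjusted permutation p = 0.0037 for r). These fell to 0.46 and 0.49 without the 2 birds farthest from the median of WFS1, so they rest in part on those birds. MCTP2 varied with CAMK1G there too (r = 0.65, rho = 0.66, adjusted permutation p = 0.0113; 0.61 without 2 birds). FIGN and ARNT2 were opposed among birds in rostral hippocampus (r = -0.72, rho = -0.66, adjusted permutation p = 0.00252; -0.64 without 2 birds). PLCXD3 and ARNT2 varied together in rostral hippocampus (r = 0.62, rho = 0.63, adjusted permutation p = 0.0128; 0.67 without 2 birds) and in striatum (r = 0.69, rho = 0.72, adjusted permutation p = 0.0037; 0.71 without 2 birds).

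In caudal hippocampus WFS1 varied with ARNT2 (r = 0.67, rho = 0.71, adjusted permutation p = 0.00434; 0.65 without 2 birds). The remaining pairs are negative and striatal. FIGN and SRL had r = -0.61 (adjusted permutation p = 0.0144; rho = -0.54, adjusted permutation p = 0.0591; r = -0.53 without 2 birds). SRL did not pass the filter on low counts in striatum alone, with a median of 5 counts and no count in 3 libraries. The striatum library of bird 11, with a count in 7718 genes, is among those 3. The pair was not tested without that library, so nothing is read from this pair. MCTP2 and PLCXD3 had r = -0.56 (adjusted permutation p = 0.0355; rho = -0.41, adjusted permutation p = 0.195; r = -0.42 without 2 birds). These last 2 pairs passed by r and not by rho.

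**Figure D4:**
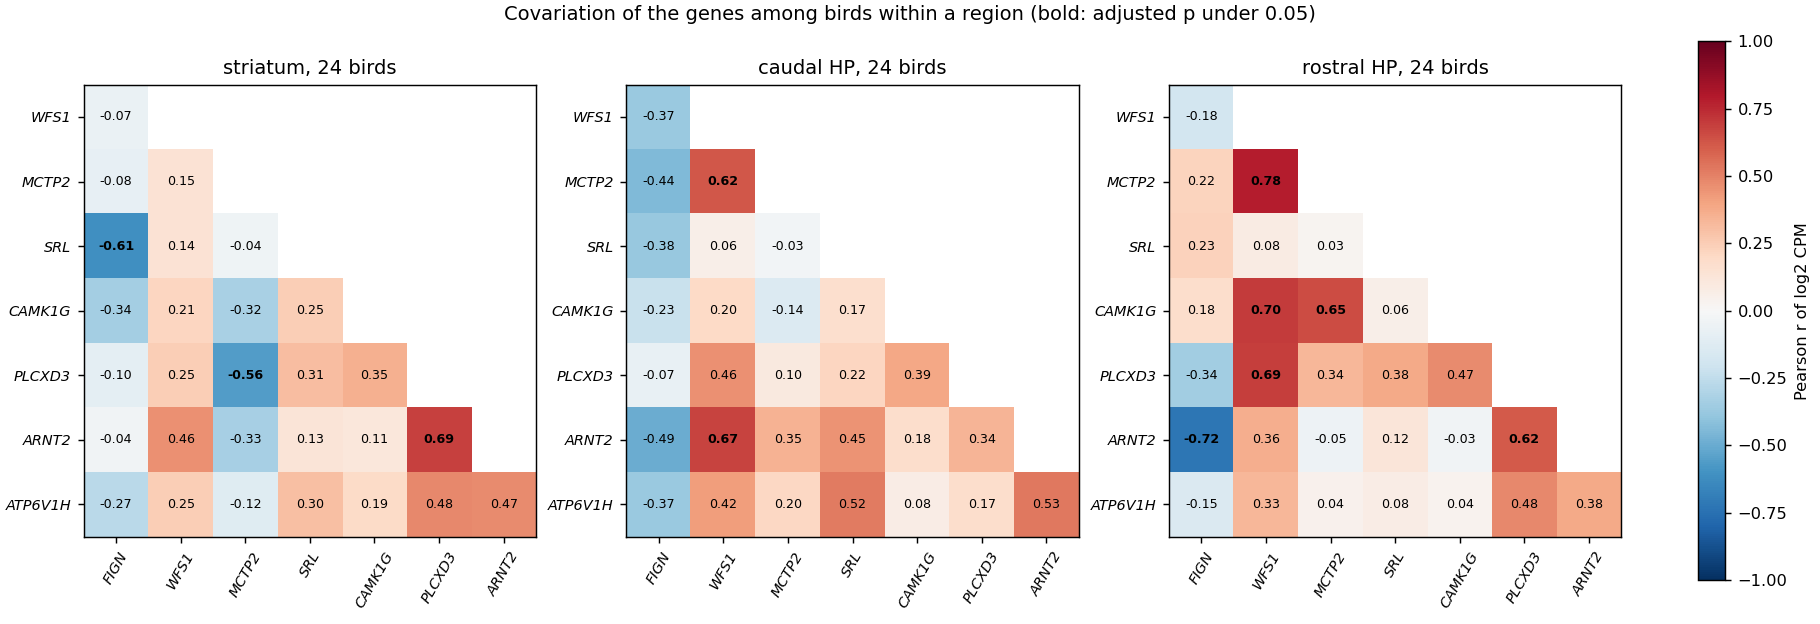
Pearson's r of log2 CPM between the 8 genes over 24 birds (colour and printed value, from -1 in blue to 1 in red) in striatum, caudal hippocampus and rostral hippocampus (HP), with bold numbers where the adjusted permutation p was under 0.05. The strongest positive cell is WFS1 with MCTP2 in rostral hippocampus (0.78), and the strongest negative one is FIGN with ARNT2 in the same part (-0.72).

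**Figure D5:**
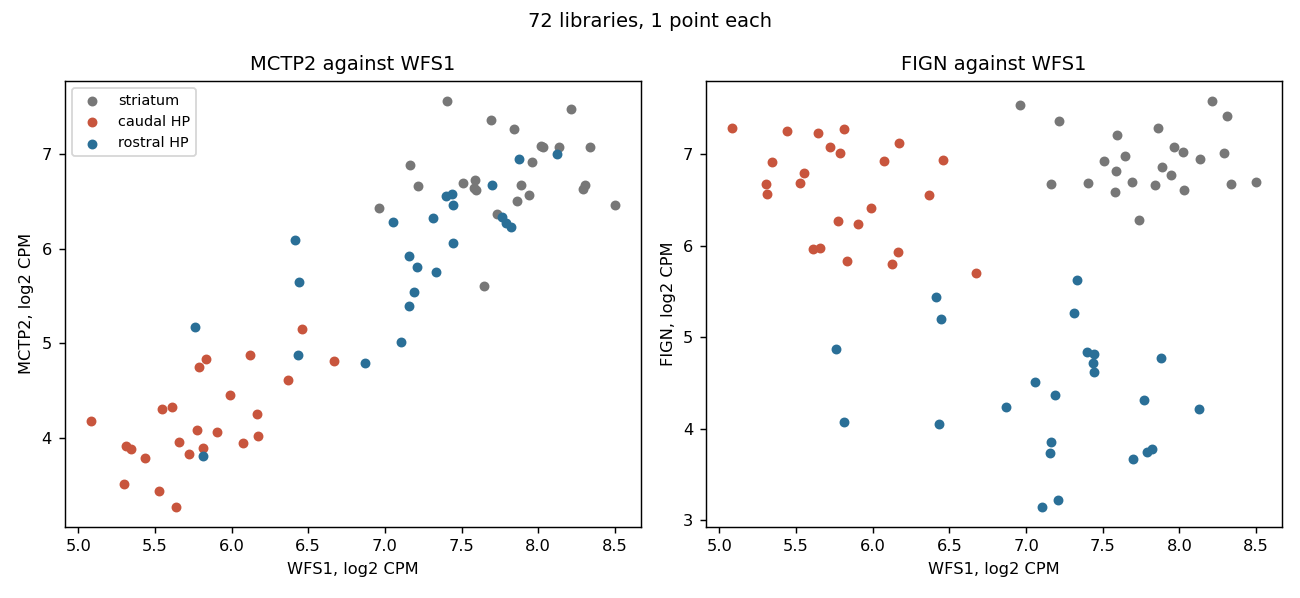
MCTP2 (left) and FIGN (right) against WFS1, both axes in log2 CPM, with 1 point for each of 72 libraries coloured by region (HP, hippocampus). On the left the caudal, rostral and striatal libraries lie along a rising band with r = 0.62 within the caudal and 0.78 within the rostral part, and on the right they form 3 separate clouds, caudal libraries with high FIGN and low WFS1, rostral ones with low FIGN and striatal ones with both high.

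The scatter of WFS1 against MCTP2 shows their levels over the 72 libraries. Distances between profiles, for these and the other genes of the set, were taken over all regions. They therefore include the caudal to rostral difference on which the set was chosen. Nearness to a gene with the same difference is in part fixed by that choice, so the distances are given as a description without a test. Measured as the root mean square difference of standardised log2 CPM over all libraries, among 8595 genes compared, the nearest gene to WFS1 was MCTP2 and the nearest to MCTP2 was WFS1, at 0.42 SD. The next were KCNG3, a potassium channel subunit, for WFS1 (0.45) and CDH8, a cadherin, for MCTP2 (0.48). FIGN was nearest to SIX3, a homeobox transcription factor (0.42), and to KCNH5, a potassium channel (0.45). SIX3 averaged 115 ± 47.1 CPM in striatum, 124 ± 56.1 CPM in caudal and 16.3 ± 9.51 CPM in rostral hippocampus (SD, n = 24 each), the same order of caudal and rostral levels as FIGN.

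ARNT2 was nearest to CDH11, a cadherin (0.54), and PSME4, a proteasome activator (0.58), and PLCXD3 to OPRM1, the mu opioid receptor (0.60), and ALDH5A1, an enzyme of GABA breakdown (0.64). OPRM1 averaged 27.1 ± 11.0 CPM in striatum, 10.9 ± 5.67 CPM in caudal and 31.2 ± 9.58 CPM in rostral hippocampus. ATP6V1H was nearest to LYPLA1 and PCSK2, a prohormone convertase (0.64 and 0.66), SRL to ATP9A and ATG9A (0.72 and 0.74), and CAMK1G to ST8SIA2 and HS6ST3 (0.74 and 0.77). The median distance to all genes was between 1.36 and 1.44 for the 8 genes.

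Other genes of the same pathways showed where the 8 stand among their relatives. Of 14 further V-ATPase genes tested, 0 were higher and 12 lower in striatum than in hippocampus, as ATP6V1H was, against 30.1% higher and 35.4% lower of all genes, with a median log2 fold of -0.44 against -0.05. The largest decrease was that of ATP6V1F (-1.19, adjusted p = 2.91e-12), and ATP6V1A, a catalytic subunit, was lower by -0.90 (adjusted p = 5.24e-27). Between the hippocampal parts 2 of the 14 were higher and 5 lower in the caudal part (all genes 24.6% and 25.2%), with a median of -0.12 against 0.01 for all genes. ATP6V1B2 was lower there, at 974 ± 176 CPM in caudal and 1384 ± 169 CPM in rostral hippocampus (log2 fold -0.51 ± 0.06, edgeR adjusted p = 1.19e-09), and ATP6V0D1 was lower by -0.48 (adjusted p = 1.19e-09). ATP6V0C was higher by 0.18 (adjusted p = 0.018) and ATP6V0B by 0.17 (adjusted p = 0.0484).

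Of 19 other genes of endoplasmic reticulum calcium handling, 6 were higher and 5 lower in the caudal than in the rostral part, against 24.6% and 25.2% of all genes, with a median log2 fold of -0.08 against 0.01. RYR2, a calcium release channel, was higher, at 1010 ± 287 CPM in caudal and 572 ± 117 CPM in rostral hippocampus (log2 fold 0.80 ± 0.10, edgeR adjusted p = 1.01e-08), opposite to WFS1 and SRL. ITPR2, an inositol trisphosphate receptor, was higher by 0.66 (adjusted p = 1.81e-05). ATP2A3, a calcium pump of the reticulum, was lower by -1.04 (adjusted p = 4.74e-06), and CANX, a chaperone there, by -0.20 (adjusted p = 9.33e-05). In striatum 8 of the 19 were higher and 4 lower, against 30.1% and 35.4% of all genes, with a median of 0.08 against -0.05.

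The calmodulin kinase and calcineurin list held 21 other tested genes, of which 8 were higher and 7 lower caudally (all genes 24.6% and 25.2%; median log2 fold 0.11 against 0.01). In striatum 9 were higher and 6 lower (all genes 30.1% and 35.4%; median -0.03 against -0.05). CAMK2A, a subunit of calmodulin kinase II, was lower in the caudal part, at 994 ± 311 CPM in caudal and 1689 ± 426 CPM in rostral hippocampus (log2 fold -0.76 ± 0.13, edgeR adjusted p = 2.82e-06), and RCAN3, a regulator of calcineurin, was lower by -0.69 (adjusted p = 2.63e-09). CAMK2B was higher by 0.38 (adjusted p = 4.57e-06) and PPP3CA, a catalytic subunit of calcineurin, by 0.32 (adjusted p = 1.13e-06). The other catalytic subunits, PPP3CB and PPP3CC, were lower by -0.24 (adjusted p = 0.000154) and -0.31 (adjusted p = 0.01). CAMK2A and CAMK2B thus lay in opposite directions. Of the other kinase II subunits, CAMK2D was lower by -0.31 (adjusted p = 0.0352) and CAMK2G did not pass (-0.02, adjusted p = 0.85).

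Among 12 genes of C2-domain and membrane-tether proteins 4 were higher and 4 lower caudally (all genes 24.6% and 25.2%), while 7 were higher and 5 lower in striatum (all genes 30.1% and 35.4%). Their median log2 fold was -0.03 caudally and 0.37 in striatum, against 0.01 and -0.05 for all genes. DYSF, a membrane repair protein of muscle, was higher in the caudal part by 1.13 (edgeR adjusted p = 5.08e-06) and RIMS2, a protein of the presynaptic active zone, by 0.20 (adjusted p = 0.00031). DOC2B, a calcium sensor of vesicle release, was lower by -0.81 (adjusted p = 0.000162) and RIMS4 by -0.35 (adjusted p = 0.000155). Among 11 other phospholipase C genes 3 were higher and 3 lower caudally, with a median of -0.07, while 2 were higher and 7 lower in striatum, with a median of -0.26, set against the same shares and medians of all genes. PLCB1 was higher in the caudal part by 0.85 (adjusted p = 8.38e-10) and PLCB4 by 0.73 (adjusted p = 6.15e-07), whereas PLCH2 was lower by -0.97 (adjusted p = 1.28e-05) and PLCD1 by -0.63 (adjusted p = 3.56e-05).

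The list of microtubule severing held 8 other tested genes. In the caudal part 1 of them was higher and 1 lower (all genes 24.6% and 25.2%), with a median of 0.05 against 0.01. In striatum 1 was higher and 2 lower (all genes 30.1% and 35.4%), with a median of -0.10 against -0.05. KATNA1, the catalytic subunit of katanin, was higher in the caudal part by 0.82 (edgeR adjusted p = 0.00369). Of 11 other bHLH-PAS genes, 4 were higher and 3 lower caudally, with a median of 0.0032, and 6 were higher and 3 lower in striatum, with a median of 0.21, set against the same shares and medians of all genes. The clock genes PER3 and ARNTL were higher in the caudal part by 0.52 (adjusted p = 1.07e-06) and 0.42 (adjusted p = 8.72e-06). EPAS1, a hypoxia-inducible factor, and AHR, the aryl hydrocarbon receptor, were lower by -0.72 (adjusted p = 1.67e-06) and -0.55 (adjusted p = 8.27e-05).

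Of the 7 genes listed as markers of the ventral hippocampus in rodents, 5 were tested, and 1 was higher and 2 lower in the caudal part (all genes 24.6% and 25.2%), with a median of 0.28 against 0.01. NR2F2, a nuclear receptor, was the higher one, at 1013 ± 251 CPM in caudal and 344 ± 57.9 CPM in rostral hippocampus (SD, n = 24 each; log2 fold 1.54 ± 0.12, edgeR adjusted p = 1.53e-14), in 24 of 24 birds. HTR2C, a serotonin receptor, was lower by -0.32 (adjusted p = 0.0137) and DCN, the proteoglycan decorin, by -0.58 (adjusted p = 0.016). NR2F2 had the caudal direction of FIGN, but in striatum it was lower than in hippocampus by a log2 fold of -2.72 (adjusted p = 2.13e-27), where FIGN was higher. None of the 3 genes found of a rodent dorsal list passed the filter on low counts, so the counterpart of that list was not tested.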

How the data were processed

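Libraries were made by a sequencing company from kit-extracted total RNA, per the labels' protocols. HISAT2 and StringTie are named, without versions, per the submitters' processing notes. What build, annotation, counter and strand setting were used is not given in the sources used here. Whole-number gene counts, with no normalization, were deposited. None of the table's gene identifiers was found in the Passer montanus reference table (0), in which all 8 symbols were found, and 34 of its gene descriptions name Taeniopygia guttata, so gene models may be those of another species and reads may be lost unevenly between genes. None of the 8 genes overlapped another gene in the table, where coordinates are of an unnamed build.

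Counts were tested with edgeR 4.0.16 (quasi-likelihood, TMM scaling, filterByExpr at 10 counts and a total of 15) under R 4.3.3, Benjamini-Hochberg adjusted p under 0.05. SRL, CAMK1G and PLCXD3 failed that filter in caudal hippocampus alone, and SRL and CAMK1G also in striatum alone; in the fit of all regions they pass through the regions where they are higher. Levels are TMM-scaled CPM, log2 CPM with a prior count of 2, and RPKM from the table's gene lengths. Levels of cell type markers are instead CPM scaled by total counts alone, without TMM. Standard errors are the log2 fold divided by the root of F, and 95% intervals are normal. Bird was a block in region comparisons because the 3 libraries of a bird come from 1 animal, by the bird numbers of the labels. The median correlation of residuals within a bird was 0.17 for the hippocampal parts, 0.129 for striatum with the caudal part and 0.159 for striatum with the rostral part; between birds it was -0.00881, -0.00299 and -0.00552. The lowest chi-square per degree of freedom between libraries of a group was 5.87, so none was taken as a duplicate.

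Alternatives were RLE size factors, no filter, limma 3.58.1 voom, DESeq2 1.42.0, no block, hippocampal libraries alone, marker lists as covariates and leaving out birds or libraries. The fits and the pair test were tested on simulated data. Of 100 genes changed by a log2 fold of 0.5, sex by part recovered 11 and sex by striatum 29. The male minus female fits recovered 32 to 45 of 100. At a log2 fold of 1 these were 62, 67 and 80 to 86, so a missing call does not exclude a sex difference. Apart from the 8 genes, those named are the 2 per direction with the smallest p per pathway list in caudal minus rostral, the 2 nearest genes per member, and ATP6V1F, ATP6V1A and single cell type markers, chosen after their values were seen. A gene that this rule takes is not reported here. The members and lists were chosen with earlier results of these data known. The behaviour of the birds was not analysed here.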

Additional observations from a re-analysis of the deposited data

How the results depend on the processing

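The striatum results of the 8 genes kept direction and call under every alternative run (246 values). SRL could be fitted in 22 of the 24 fits that leave out a bird. In the filtered fits SRL and CAMK1G entered through the rostral libraries, where their level is high. PLCXD3 entered through the striatal and rostral ones. Nothing is read from the stability of these genes. With a prior count of 0.5, after removing sex means and without bird 260, the 11 called pairs kept their call (33 values). After removing sex means 13 passed. By rho FIGN with SRL and MCTP2 with PLCXD3 in striatum did not pass. None of these settings leaves out the striatum library of bird 11, so nothing is read from the stability of FIGN with SRL. limma voom called 5 genes among birds (2 by edgeR), adding FIGN (adjusted p = 0.0161), SRL (0.0173) and CAMK1G (0.00132); FIGN also passed without bird 8 (0.0382). The number of genes lower in male caudal hippocampus was 0 to 1 when each bird was left out. Over all genes, sex by part calls were 258 by edgeR, 440 by DESeq2, 148 without the replicate block, 44 with the choroid covariate, 0 with the medium spiny neuron covariate, and 83 (without bird 18) to 644 (without bird 8) when each bird was left out. Bird calls were 1288 by edgeR and 2467 by limma voom. With the choroid covariate caudal minus rostral calls were 2957 (4657 without it) and male minus female calls in caudal hippocampus 104 (238). Male minus female calls were 310 (without bird 18) to 951 (without bird 22) in rostral hippocampus, against 476 with all birds, and 226 without bird 260 in striatum, against 148.

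The sign changes were in sex values that passed no threshold, and the cause was not tested. Without the replicate block, the pairing by bird, sex by part was -0.022 for WFS1 and sex by striatum -0.082 for PLCXD3. Sex by part of WFS1 was -0.011 with voom, -0.13 with the medium spiny neuron covariate and -0.019 without bird 260. With the choroid covariate it was 0.20 for MCTP2 and -0.73 for PLCXD3. Sex by striatum of PLCXD3 was -0.0043 without a filter, and male minus female PLCXD3 in striatum 0.043 with voom. Without the striatum library of bird 11, sex by striatum of SRL was 0.0076 and male minus female ATP6V1H in striatum 0.0050.

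Leaving out each bird, male minus female spanned -0.090 to 0.021 for ARNT2 and -0.11 to 0.033 for FIGN in caudal hippocampus, -0.039 to 0.042 for ATP6V1H in rostral hippocampus, and -0.056 to 0.052 for ATP6V1H, -0.42 to 0.081 for PLCXD3 and -0.018 to 0.13 for WFS1 in striatum. Sex by part spanned -0.11 to 0.081 for MCTP2, -0.025 to 0.73 for PLCXD3 and -0.019 to 0.21 for WFS1, and sex by striatum -0.32 to 0.34 for PLCXD3. Depth limits SRL, CAMK1G and PLCXD3, whose median caudal counts were 1.5 to 5, and their sex values in caudal hippocampus were obtained only without the filter: 0.44 ± 0.70, 0.32 ± 0.41 and 0.05 ± 0.56 (log2 fold ± SE).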
